A study of Rattus norvegicus with 70 samples.

Results

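Immediate early genes and heat shock genes were followed across the organs of rats given bisphenols: the transcription factor genes Fos, Jun, Junb, Egr1 and Atf3, the immediate early genes Ier2 and Cyr61, and the heat shock genes Hspa1b, Hspb1 and Dnajb1. The 10 rows were taken from the table of 17048 rows by gene symbol, and each symbol occurred once. The libraries, 70 in all, counted the 3′ ends of messenger RNA in organs of 18 Sprague-Dawley rats, an outbred strain with no engineered allele, at postnatal day 63. Liver, kidney and thyroid came from both sexes, testis from males and ovary from females. Vehicle rats were offspring of dams given vehicle and were themselves given vehicle. BPA rats came from dams given bisphenol A by mouth at 500 mg/kg/day, starting on gestational day 6 and ending on lactation day 6, and were dosed themselves at 250 mg/kg/day from postnatal day 7 to 63. Mix rats had the same total doses of 3 bisphenols combined, which for the dams held BPA and BPF at 160 mg/kg/day each with BPS at 180 mg/kg/day. Every group held 3 rats, except that the female kidney had 2 vehicle and 2 BPA libraries. The same 9 rats of a sex gave the libraries of all its organs, and their codes (G006 to G203) link the organs.

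Litters were reduced to 3 male and 3 female pups per dam, and littermates may therefore sit in 1 group. The labels do not say which do, and all p-values treat rats as independent. Oestrous cycle stage, time of day and the interval between death and freezing are not given in the sources used here. Totals ran from 4803807 to 10929957 counts per library, and 3 counts, the limit that a count of 0 allows, corresponded to 0.236 to 0.671 CPM (counts scaled to a fixed library total) by library, which covers counting error only. The share of counts on ribosomal RNA rows ran from 0.657% to 37.1%. The summed markers of each labelled organ were at least 63307 CPM in liver, 3389.5 in kidney, 28989 in thyroid, 40094 in testis and 2113 in ovary, and no single marker was at 0 except 1 of 4 in 13 of 18 thyroid libraries. Testis markers (6 genes) stood at 14491 CPM in the thyroid of 1 male BPA rat and at 3383 and 1933 CPM in the thyroids of female vehicle rats 1 and 2. In whole organs, fewer cells of a type and less RNA per cell cannot be told apart.

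Immediate early genes are switched on within minutes of a stimulus from factors that are already in the cell, and their messages are short-lived. Fos and Jun proteins pair into the AP-1 complex, which binds enhancers and promoters of later genes, and serum response factor at CArG boxes drives Fos and Egr1. Heat shock genes are induced when heat shock factor 1 (HSF1) binds facing GAA repeats in their promoters, and their products hold, refold or hand over damaged proteins. In tissue removed from an animal, handling is itself known to induce both groups, and in the ovary several immediate early genes respond to the gonadotropin surge.

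Promoter sequences show which of these control elements lie next to the genes whose levels are described below. RefSeq's table for the rat build GRCr8 held the 250 bases before the annotated start for 6 of the 10 genes (Junb, Egr1, Ier2, Cyr61, Hspb1 and Dnajb1), and the counts themselves were made on rn6. Cyr61 is listed there under its current symbol Ccn1. The 4 shown are those of Hspb1 and Dnajb1, the heat shock genes with an entry, of Ier2, the immediate early gene that differed in the liver, and of Cyr61, which had separate levels in the female kidney. They are written 5′ to 3′ in the direction of transcription, with motif matches in capitals. Their positions are chr12:26432302-26432551 on the minus strand for Hspb1, chr19:41431142-41431391 on the minus strand for Dnajb1, chr19:40399123-40399372 on the plus strand for Ier2 and chr2:237225690-237225939 on the minus strand for Cyr61.
Hspb1: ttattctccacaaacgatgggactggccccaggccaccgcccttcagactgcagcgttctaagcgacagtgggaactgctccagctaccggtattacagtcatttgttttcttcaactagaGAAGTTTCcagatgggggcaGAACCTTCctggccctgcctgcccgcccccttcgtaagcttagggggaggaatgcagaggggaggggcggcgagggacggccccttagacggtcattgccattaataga
Dnajb1: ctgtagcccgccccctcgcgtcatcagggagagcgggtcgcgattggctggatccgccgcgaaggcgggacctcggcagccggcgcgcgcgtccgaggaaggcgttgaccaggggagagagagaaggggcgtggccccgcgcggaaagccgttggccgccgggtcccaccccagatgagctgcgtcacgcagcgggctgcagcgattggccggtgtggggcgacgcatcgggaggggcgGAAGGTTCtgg
Ier2: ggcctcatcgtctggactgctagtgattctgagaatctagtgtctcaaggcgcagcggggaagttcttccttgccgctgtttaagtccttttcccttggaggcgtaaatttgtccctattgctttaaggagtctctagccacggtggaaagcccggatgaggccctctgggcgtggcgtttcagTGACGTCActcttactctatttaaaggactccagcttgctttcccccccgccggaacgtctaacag
Cyr61: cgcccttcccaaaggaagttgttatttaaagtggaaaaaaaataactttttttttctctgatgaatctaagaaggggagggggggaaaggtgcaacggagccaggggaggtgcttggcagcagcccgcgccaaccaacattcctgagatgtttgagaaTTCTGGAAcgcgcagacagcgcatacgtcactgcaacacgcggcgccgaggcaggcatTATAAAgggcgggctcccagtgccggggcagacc

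The motifs searched on both strands were GAANNTTC and TTCNNGAA, the arrangements of facing repeats in a heat shock element, TGACGTCA, the cyclic AMP response element, TGAGTCA, the AP-1 site, the CArG box, and TATAAA. The first pair of motifs can share bases with each other. Hspb1 held GAANNTTC at -129 to -122 and again at -109 to -102, counted from the start, and Dnajb1 held it at -11 to -4. Of 33469 promoters in the table, 7.231% held GAANNTTC and 7.482% held TTCNNGAA, which Cyr61 carried at -92 to -85. Ier2 held TGACGTCA at -66 to -59, as did 1.587% of all promoters. Cyr61 also held TATAAA at -34 to -29, a motif of 12.93% of promoters that Junb carried as well. Egr1 held CArG boxes at -105 to -96 and at -83 to -74, against 1.497% of promoters with at least 1. TGAGTCA, found in 4.046% of promoters, was in none of the 6. A match describes letters and is not evidence of binding.

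In vehicle rats most of the genes had their highest levels in the ovary or thyroid and their lowest in the testis, given here as plain CPM without further scaling. Fos averaged 11.7 ± 7.92 CPM (SD, n = 3) in the ovary and 0.483 ± 0.379 in the testis, and every neighbouring pair in its order of 8 organ and sex combinations overlapped. Jun, whose protein is the main partner of Fos, averaged 178 ± 16.7 CPM in the ovary and 13.9 ± 2.06 in the testis. Its thyroid and kidney levels of both sexes lay between 79.3 and 204 CPM, above the liver range of 20.5 to 44.1. Atf3, a stress-induced repressor of the ATF family, stood at 12.3 ± 2.21 CPM in the ovary, where the libraries did not overlap those of the next organ, the female kidney at 3.98 ± 0.366 (n = 2). Egr1, a zinc-finger factor, was above 1 CPM on average in the ovary alone, at 1.04 ± 0.572, and had no counts in vehicle thyroid or testis, which allows up to the 3 counts given above.

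The heat shock genes followed other orders. Hspb1, which encodes the small chaperone HSP27, averaged 541 ± 118 CPM in the vehicle ovary, 238 ± 54.5 in the male and 219 ± 84.4 in the female thyroid, and below 90 in the other organs. Dnajb1, the HSP40 co-chaperone that stimulates HSP70, was highest in the testis at 359.6 ± 17.5 CPM, clear of the ovary at 105 ± 10.9. Hspa1b, which encodes an inducible HSP70, differed by sex in vehicle rats: 84.5 ± 27.8 CPM in the female and 15.4 ± 8.74 in the male liver, and 91.7 ± 41.5 (n = 2) in the female and 28.7 ± 7.95 in the male kidney. The sexes did not overlap in either organ, but they did in the thyroid, at 22.2 ± 24.02 in females and 18.3 ± 4.47 in males. Ribosomal RNA made up 1.69% to 3.47% of counts in the male and 19.0% to 37.0% in the female vehicle kidneys. The difference between the sexes and the part of ribosomal RNA in it were not tested. The plot of all libraries shows these levels by organ.

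**Figure D1:**
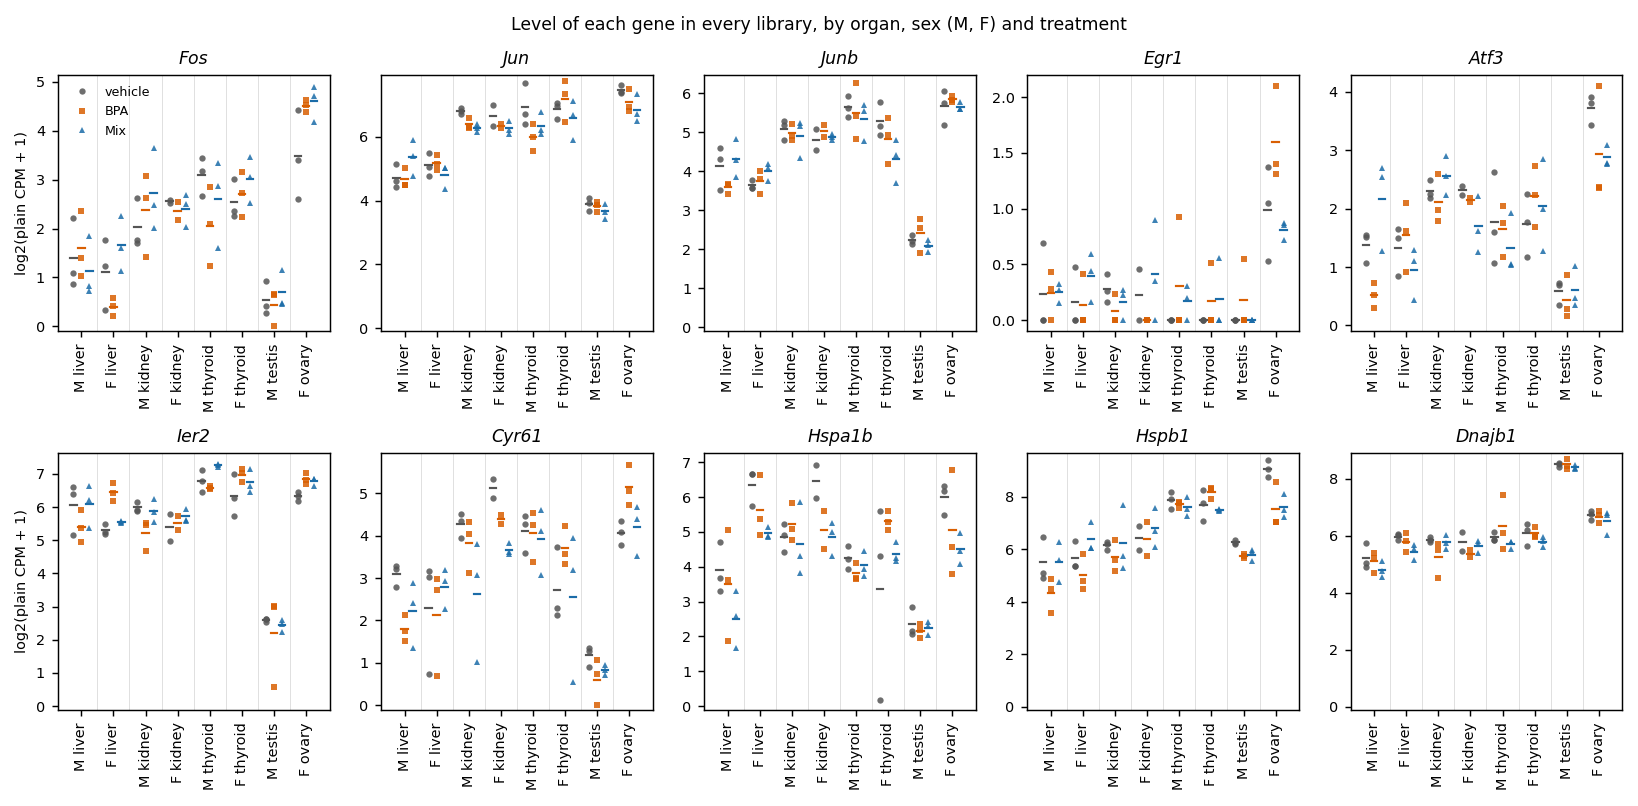
Level of each gene in every library as log2(plain CPM + 1), by organ and sex (M, male; F, female). Grey circles are vehicle, orange squares BPA and blue triangles Mix, short bars are group means on that scale, and each panel has its own axis. Dnajb1 stands highest in the testis and Hspb1 in the vehicle ovary, and Egr1 lies near 0 outside the ovary.

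From here on, levels are CPM scaled by edgeR's TMM method within an organ and sex, and changes are log2 fold changes from edgeR's quasi-likelihood test, with p-values adjusted by Benjamini-Hochberg over all genes tested in that comparison. A gene was called where that adjusted p was below 0.05. A low-count filter left 9 of the 10 genes in liver, kidney and thyroid (all but Egr1), 6 in the testis and 10 in the ovary. Over the 24 comparisons 4 of 210 gene and comparison pairs were called: Ier2 rose in the female liver under BPA, Hspb1 fell in the ovary under BPA and under Mix, and Jun fell in the ovary under Mix. At an unadjusted p below 0.05 there were 45 pairs, or 21.4%, against 12.2% of all pairs of genes and comparisons. Comparisons of BPA and of Mix with vehicle used the same vehicle libraries, so these pairs are not independent. The members were also chosen with earlier results of these data known, so the higher share is no test of them as a group.

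Counts of members are read here against the shares of all genes, always in the order BPA to vehicle, Mix to vehicle and Mix to BPA, with DESeq2's share taken over genes that it gave an adjusted p. In the male liver edgeR called, of 9 members, 0 each time, and of all genes 0.228%, 0.321% and 0.0103%. The unadjusted threshold was passed by 7.58%, 6.71% and 6.18% of all genes and by this many members: 3, 2 and 5. DESeq2 called 0.714%, 1.00% and 0.517% of genes and, of the members, 0, 0 and 1. For the female liver the edgeR calls were, of 9 members, 1, 0 and 0, and of all genes 0.419%, 0.0523% and 0%. Members below an unadjusted p of 0.05 numbered 3, 2 and 4, beside 11.43%, 6.62% and 6.50% of all genes, and DESeq2 calls numbered 1, 1 and 2, beside 2.04%, 0.524% and 0.408%. In the male kidney edgeR called, of 9 members, 0 each time, and of all genes 0.136%, 0.0273% and 2.93%. The unadjusted threshold was passed by 20.96%, 9.20% and 15.45% of all genes and by this many members: 0, 2 and 2. DESeq2 called 7.90%, 0.779% and 6.30% of genes and, of the members, 0 each time. For the female kidney the edgeR calls were, of 9 members, 0 each time, and of all genes 0% each time. Members below an unadjusted p of 0.05 numbered 2, 3 and 1, beside 16.42%, 10.40% and 7.29% of all genes, and DESeq2 calls numbered 1, 2 and 0, beside 3.86%, 0.905% and 0.214%.

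In the male thyroid edgeR called, of 9 members, 0 each time, and of all genes 0% each time. The unadjusted threshold was passed by 8.23%, 4.96% and 13.79% of all genes and by this many members: 1, 1 and 2. DESeq2 called 0.117%, 0.282% and 0.95% of genes and, of the members, 0 each time. For the female thyroid the edgeR calls were, of 9 members, 0 each time, and of all genes 0%, 0.00899% and 0%. Members below an unadjusted p of 0.05 numbered 0, 1 and 0, beside 13.35%, 23.02% and 5.84% of all genes, and DESeq2 calls numbered 0 each time, beside 2.20%, 12.06% and 0.458%. In the testis edgeR called, of 6 members, 0 each time, and of all genes 0%, 0% and 0.775%. The unadjusted threshold was passed by 12.05%, 5.33% and 17.24% of all genes and by this many members: 1, 1 and 0. DESeq2 called 1.34%, 0.153% and 5.11% of genes and, of the members, 0 each time. For the ovary the edgeR calls were, of 10 members, 1, 2 and 0, and of all genes 6.79%, 9.12% and 0.212%. Members below an unadjusted p of 0.05 numbered 3, 5 and 1, beside 23.55%, 25.45% and 11.99% of all genes, and DESeq2 calls numbered 2, 2 and 0, beside 11.29%, 13.88% and 3.64%.

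**Figure D2:**
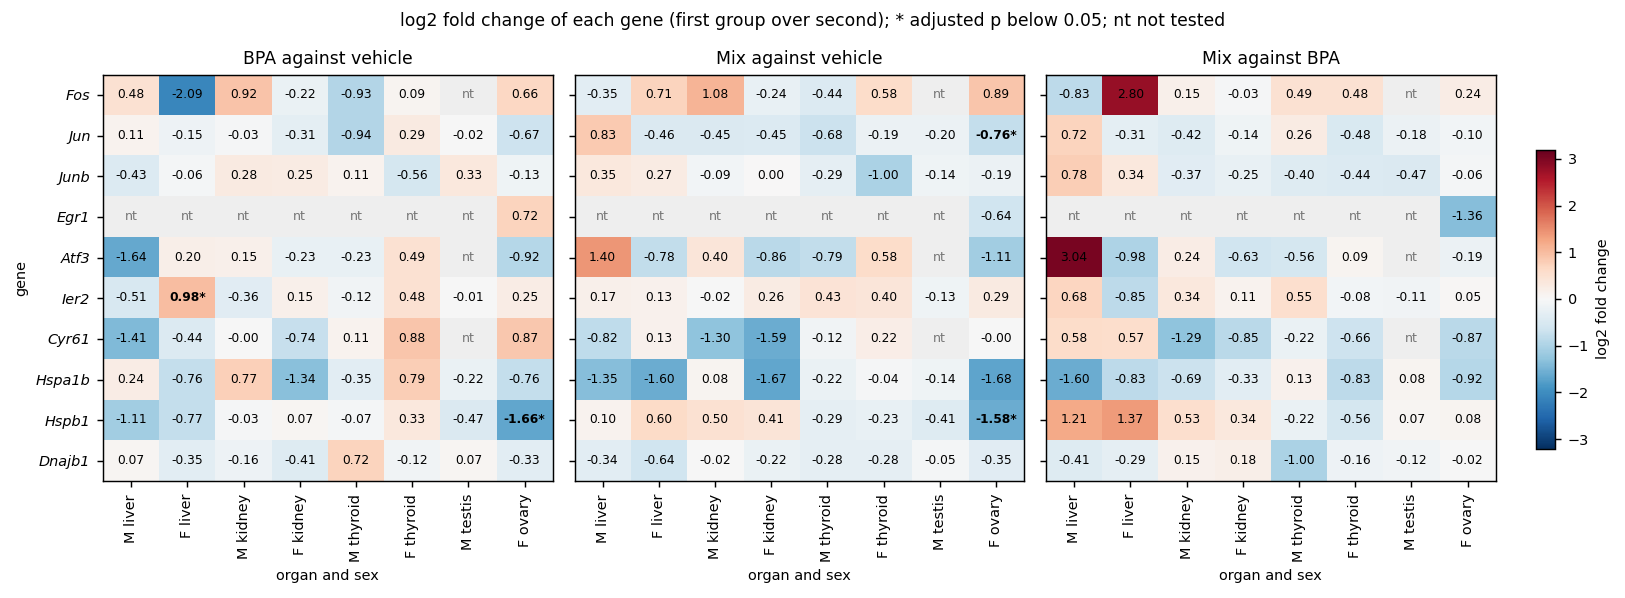
Log2 fold change of each gene in every organ and sex in the 3 comparisons of treatments (panels), where red is higher and blue lower in the group named first. An asterisk marks an adjusted p below 0.05 and nt a gene removed by the low-count filter; the 4 asterisks are Ier2 in the female liver and Jun and Hspb1 in the ovary.

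Among the transcription factor genes, Jun gave the only call. In the ovary Jun stood at 200.2, 199 and 192 CPM in the vehicle rats, at 153, 117 and 103 in the BPA rats and at 152, 92.5 and 104 in the Mix rats. Every treated library lay below every vehicle library. Under Mix Jun fell by 0.76 ± 0.19 on the log2 scale (SE; 116 ± 31.7 against 197.2 ± 4.2 CPM, SD, n = 3 each; adjusted p = 0.0294). Under BPA the log2 change was -0.67 ± 0.19 with an adjusted p of 0.0577, which misses the threshold. DESeq2 called it (0.0134), as did edgeR with no low-count filter (0.0406) and without BPA rat 1 (0.0312), Mix rat 1 (0.0337) or Mix rat 2 (0.0410). The Mix call was lost without vehicle rat 1, 2 or 3 (adjusted p 0.0618, 0.0894 and 0.0595) and without Mix rat 2 or 3 (0.0687 and 0.116). Elsewhere the group means of Jun in the male thyroid were 129 ± 64.2 CPM under vehicle and 67.0 ± 13.4 under BPA, a log2 change of -0.94 with an adjusted p of 0.586.

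Fos ranged from 0.155 to 28.9 CPM outside the testis, where 1 of 9 libraries held no read. Its counts were 33 to 185 reads in the ovary, 12 to 91 in the male thyroid and 1 to 30 in the female liver. In the ovary it stood at 20.8, 6.07 and 10.8 CPM under vehicle, 16.8, 21.1 and 21.9 under BPA and 24.02, 17.6 and 28.9 under Mix. The groups overlapped, through vehicle rat 1, and the log2 change for Mix was 0.89 ± 0.36 (adjusted p = 0.135). Without that rat Fos was called for BPA (1.23, adjusted p = 0.0488) and for Mix (1.47, adjusted p = 0.0208). In the female liver Fos stood at 0.320, 0.463 and 0.155 CPM under BPA, near the level of a few reads, and at 1.88, 3.89 and 1.22 under Mix (adjusted p = 0.592 for Mix against BPA).

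Junb, a second AP-1 partner, gave no call. In the female thyroid under Mix it stood at 25.4, 20.5 and 14.0 CPM against 32.6, 55.5 and 32.2 under vehicle, with all Mix libraries below all vehicle libraries (log2 -1.004 ± 0.38, adjusted p = 0.153). Ribosomal RNA made up 11.7% to 23.7% of counts in these Mix libraries and 0.657% to 3.25% in the vehicle libraries. Thyroid markers (53228 to 73485 against 28989 to 50323 CPM), smooth muscle markers (212 to 247 against 68.0 to 114) and endothelial markers (280 to 381 against 121 to 184) were higher under Mix. Lymphocyte markers were higher too (14.3 to 22.9 against 3.01 to 8.22), and liver markers lower (35.7 to 74.6 against 99.1 to 3754). The part of any of these in the Junb levels was not tested. Atf3 in the male liver stood at 1.63, 0.943 and 2.08 CPM under vehicle, 0.760, 0.244 and 0.435 under BPA and 5.24, 5.68 and 1.31 under Mix. The Mix libraries all lay above the BPA libraries, with Mix rat 3 nearest to them, and the log2 difference of 3.04 ± 0.72 had an adjusted p of 0.213. DESeq2 called it (adjusted p = 0.0136). Atf3 in the ovary stood at 9.95, 15.6 and 15.8 CPM under vehicle, 13.7, 3.98 and 3.80 under BPA and 5.58, 7.79 and 5.75 under Mix. The adjusted p-values were 0.151 for Mix and, without BPA rat 1, 0.0195 for BPA. That rat's ovary was the only treated one within the vehicle range. Egr1 could be tested in the ovary alone, where it ran from 0.452 to 3.04 CPM, or 3 to 20 reads, with no call.

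Ier2, a small nuclear protein gene among the quickest to respond to growth factors, rose in the female liver under BPA. Its libraries stood at 37.0, 39.4 and 48.1 CPM under vehicle, at 68.7, 79.6 and 97.5 under BPA and at 42.6, 48.3 and 45.3 under Mix. All BPA libraries lay above all others. The rise was 0.98 ± 0.20 on the log2 scale, or 1.97-fold (81.9 ± 14.5 against 41.5 ± 5.85 CPM, SD, n = 3 each; adjusted p = 0.0489). It was lost when any 1 of the 9 libraries was left out (adjusted p 0.0536 to 0.217), and with the ribosomal RNA share as a covariate (0.0841).  Mix against BPA was -0.85 (95% interval -1.27 to -0.42, adjusted p = 0.262). Summed liver markers were 119593 to 137082 CPM in these vehicle livers, 74107 to 82728 under BPA and 63307 to 105844 under Mix. The 4 smooth muscle markers, of which 1 was at 0 in some libraries, summed to 14.9 to 22.3 CPM under vehicle and 10.02 to 13.7 under BPA. Of the 13 marker lists these were the ones that did not overlap between BPA and vehicle, and their part in the result was not tested.

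Outside the female liver Ier2 gave no call. Male livers stood at 73.1, 82.8 and 37.0 CPM under vehicle and 46.9, 31.2 and 58.0 under BPA, and the female effect of BPA exceeded the male effect by 1.49 (log2), with an adjusted p of 0.2495 for the sex by treatment term. In the male thyroid the Mix libraries held 145, 150.5 and 145 CPM, above the vehicle libraries at 107, 136 and 84.3 (adjusted p = 0.922). In the testis its range was 0.515 to 7.26 CPM.

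Cyr61, a secreted matrix protein that binds integrins and is a target of the YAP pathway, had separate levels in the female kidney. Its libraries stood at 35.4 and 32.9 CPM under vehicle, 21.3 and 19.7 under BPA and 11.0, 10.8 and 12.3 under Mix. No library of 1 group overlapped another group. The log2 change was -0.74 ± 0.23 for BPA (adjusted p = 0.195) and -1.59 ± 0.21 for Mix (unadjusted p = 2.68e-05, adjusted p = 0.203), with no call. For Mix, DESeq2 called it (adjusted p = 0.000261), and so did edgeR with the ribosomal RNA share as a covariate (0.0152). Both also raised the calls over all genes from 0, as given below. In ribosomal RNA share, vehicle rat G112 stood at 37.0% and the other kidneys at 17.1% to 20.7%. With 2 vehicle kidneys, leaving out G112 (adjusted p = 0.0195) leaves 1 vehicle library that is assumed to vary like the other groups, so it is no check of the change. Ribosomal RNA made up 19.0% to 37.0% of counts in the vehicle kidneys, 17.1% to 20.7% under BPA and 17.4% to 20.5% under Mix. The 5 endothelial markers, none at 0, summed to 302 to 312 CPM under vehicle, 189.8 to 190.2 under BPA and 269 to 295 under Mix. The 4 kidney markers were also lower under BPA than under vehicle, at 3389.5 to 3616 against 4434 to 5082 CPM, and 5 erythroid markers higher, at 8264 to 12777 against 4302 to 6488. Lower under BPA too were 6 fibroblast markers (392 to 587 against 634 to 852 CPM) and 4 smooth muscle markers (57.3 to 59.2 against 61.7 to 119). Lower under Mix were 6 lymphocyte markers (15.4 to 16.4 against 20.4 to 31.5) and 4 ovary markers (5.98 to 7.72 against 8.30 to 9.62). Some smooth muscle, lymphocyte and ovary markers were at 0. The part of these cells in the Cyr61 levels was not tested. In the ovary Cyr61 was higher under BPA, at 27.4, 47.6 and 23.7 CPM, than under vehicle at 12.97, 19.1 and 21.9, with no overlap (log2 0.87 ± 0.33, adjusted p = 0.128). In the male liver its BPA libraries at 2.79, 1.95 and 3.34 CPM lay below the vehicle libraries at 5.15, 7.47 and 8.82 (adjusted p = 0.450). Macrophage markers there were also lower under BPA (140 to 193 against 208 to 251 CPM). Endothelial markers (124 to 132 against 100 to 121) and erythroid markers (6462 to 8441 against 2873.5 to 6013) were higher. The part of these cells was not tested.

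Hspb1 fell in the ovary under both treatments. Vehicle ovaries held 676, 629 and 487 CPM, BPA ovaries 324, 123 and 120.0, and Mix ovaries 263, 186 and 149.9. The lowest vehicle library was above the highest treated one. Under BPA it fell by 1.66 ± 0.34 on the log2 scale, to 3.16-fold lower (189 ± 117 against 598 ± 98.4 CPM, SD, n = 3 each; adjusted p = 0.0154). Under Mix it fell by 1.58 ± 0.34, to 2.99-fold lower (199.6 ± 57.5 CPM, adjusted p = 0.0156). Mix and BPA ovaries differed by 0.08 (95% interval -0.65 to 0.80, adjusted p = 0.963).

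The BPA call on Hspb1 was lost without vehicle rat 2 (adjusted p = 0.0544), BPA rat 2 (0.0719) or BPA rat 3 (0.0719), and the Mix call without vehicle rat 2 (0.0602) or Mix rat 3 (0.0660). Ribosomal RNA made up 20.6% to 29.3% of counts in the vehicle ovaries, 12.4% to 19.1% under BPA and 18.6% to 23.8% under Mix. With that share as a covariate, the BPA change was -2.55 (adjusted p = 0.0227) and the Mix change -1.93 (adjusted p = 0.00776). Summed ovary markers overlapped between the groups, at 2452 to 3226 CPM under vehicle, 2113 to 3222 under BPA and 2710 to 3397 under Mix. Endothelial markers (5, none at 0) did not overlap, at 151 to 158 CPM under vehicle, 164 to 207 under BPA and 177 to 268 under Mix. Under BPA 6 macrophage markers (90.8 to 114 against 124 to 172 CPM) and 4 adipocyte markers (26.6 to 74.9 against 75.5 to 98.6) lay below vehicle, and under Mix both overlapped it. The part of these cells in the levels of Hspb1, and of Jun above, was not tested.

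In other organs Hspb1 gave no call. Testis levels were 70.7, 78.8 and 71.9 CPM under vehicle, 48.1, 55.7 and 56.1 under BPA and 64.2, 45.2 and 57.8 under Mix, with every treated library below every vehicle library (adjusted p 0.268 and 0.799). In the female liver Mix libraries at 121, 66.1 and 66.8 CPM lay above BPA libraries at 52.2, 25.4 and 20.1 (log2 1.37, adjusted p = 0.324). One male kidney, Mix rat 3, stood at 179 CPM against 39.3 to 78.3 in the other 8.

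Hspa1b had lower mean levels in treated than in vehicle females in liver, kidney and ovary, without a call. In the female thyroid the means were 21.4 ± 22.5 CPM under vehicle, 37.1 ± 7.83 under BPA and 20.8 ± 4.18 under Mix. Female livers held 101, 112.6 and 57.6 CPM under vehicle, 93.9, 38.5 and 27.2 under BPA and 32.0, 29.3 and 28.4 under Mix. All Mix livers lay below all vehicle livers, while BPA rat 1 stood among the vehicle rats. The log2 change was -0.76 for BPA and -1.60 ± 0.37 for Mix, with an adjusted p of 0.249 for Mix. Without BPA rat 1, which enters the shared estimate of spread, Mix was called (adjusted p = 0.0381), and DESeq2 called it too (0.00592). Liver markers (above), 5 endothelial markers (119 to 134 against 147 to 173 CPM) and 6 lymphocyte markers (12.83 to 17.5 against 20.8 to 24.8) were also lower under Mix than under vehicle, and their part in the result was not tested.

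Female kidneys held 77.5 and 101 CPM of Hspa1b under vehicle, 46.9 and 23.5 under BPA and 19.1, 36.2 and 29.0 under Mix. The treated libraries all lay below both vehicle libraries, with log2 changes of -1.34 ± 0.37 for BPA (adjusted p = 0.160) and -1.67 ± 0.33 for Mix (0.302). DESeq2 called both (0.0236 and 0.00102), and so did edgeR with the ribosomal RNA share as a covariate (0.0347 and 0.0221). Over all genes the main fit called 0%, and DESeq2 3.86% for BPA and 0.905% for Mix. The covariate also raised the calls over all genes, as given below, so these calls are not particular to Hspa1b. The markers given with Cyr61 come from these same kidneys. Endothelial markers were below vehicle under both treatments, while kidney and erythroid markers separated from vehicle under BPA alone. Under Mix these last 2 lists overlapped vehicle, at 4086 to 5393 against 4434 to 5082 CPM and 5063 to 7452 against 4302 to 6488. The part of these cells in the Hspa1b levels was not tested. Ovaries held 80.5, 84.9 and 49.8 CPM under vehicle, 92.1, 21.6 and 12.02 under BPA and 19.9, 31.2 and 15.8 under Mix. The log2 change was -1.68 ± 0.56 for Mix (adjusted p = 0.0793) and -0.76 for BPA. Among the treated ovaries only BPA rat 1 stood with the vehicle rats, and it enters the shared estimate of spread. Leaving it out removes the library that differed from the rest, so it is no independent check. Hspa1b was then called for BPA (-2.09, adjusted p = 0.00594) and for Mix (-1.67, 0.00669). Without BPA rat 3 it was called for Mix (0.0421).

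In male livers and kidneys Hspa1b gave no call. Male livers held 22.2, 10.1 and 9.60 CPM under vehicle, 13.2, 33.8 and 2.61 under BPA and 9.57, 2.24 and 4.53 under Mix. The Mix livers lay just below the vehicle livers, and the BPA livers overlapped both (adjusted p = 0.7805 for Mix). Male kidneys held 19.2, 31.8 and 26.0 CPM under vehicle, 41.9, 54.9 and 34.4 under BPA and 13.5, 17.5 and 50.2 under Mix. The BPA kidneys lay above the vehicle kidneys in males and below them in females. The difference of the female from the male effect was -2.10 ± 0.63 (log2) for BPA, with an adjusted p of 0.0624 where 4.73% of all genes were called, and -1.75 ± 0.59 for Mix (0.370). Ribosomal RNA made up 1.69% to 3.47% of counts in vehicle and 16.3% to 37.1% in BPA male kidneys, while 6 fibroblast markers summed to 323 to 499 and 1108 to 1230.1 CPM, 5 endothelial markers to 198 to 257 and 270.2 to 309, 4 adipocyte markers to 75.2 to 91.02 and 116 to 128.4, and 4 kidney markers to 5348 to 6238.5 and 4404 to 4652. In the same order, 6 lymphocyte markers, some at 0, summed to 17.1 to 19.5 and 24.7 to 26.7 CPM. The 6 testis markers summed to 235 to 454 and 37.5 to 204, and 4 thyroid markers to 80.4 to 110 and 50.2 to 77.0. The part of any of these in the difference was not tested. No sex by treatment term of any of the genes tested was called in liver, kidney or thyroid by edgeR (0 of 54 terms, of which 6 had an unadjusted p below 0.05, or 11.11% against 12.78% of the same terms over all genes), and DESeq2 was not run for these terms.

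**Figure D3:**
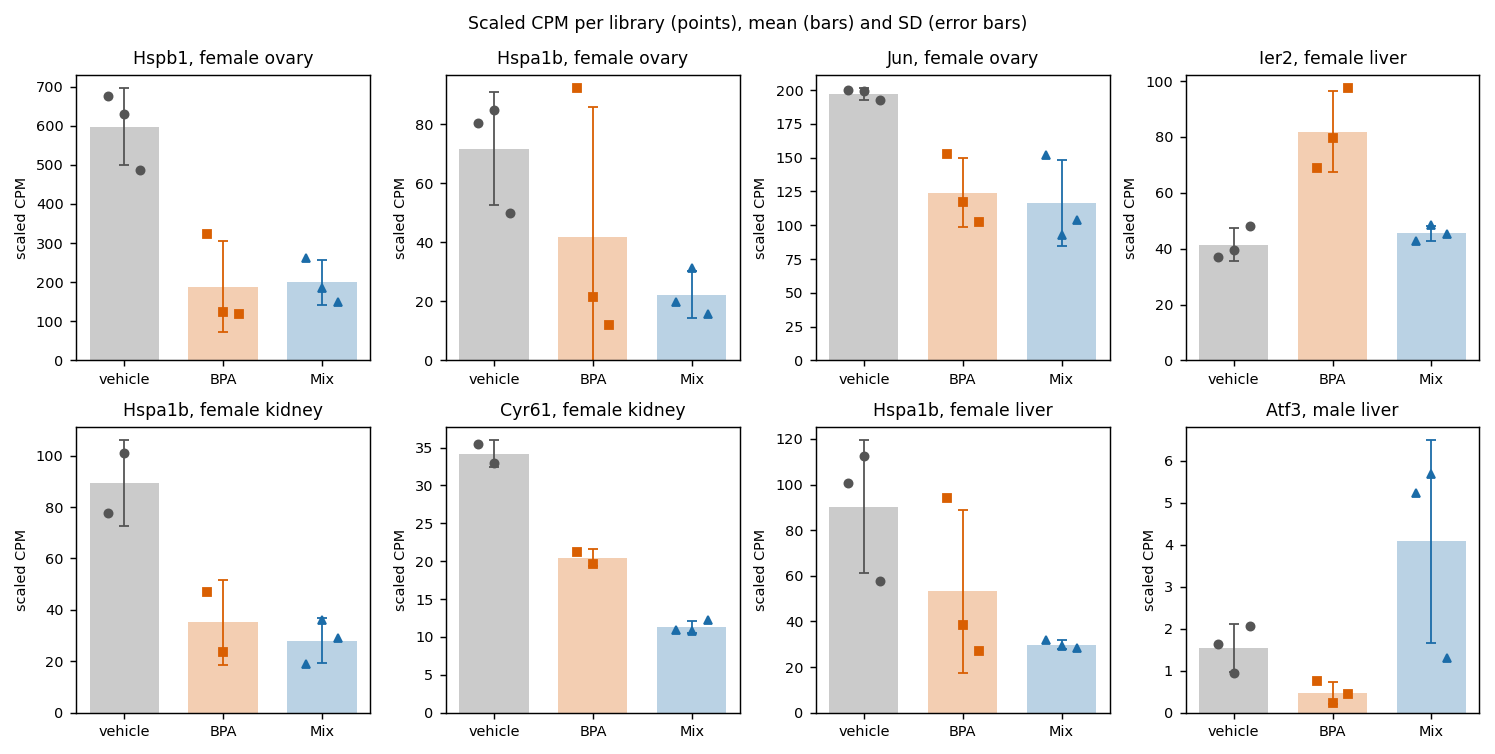
Scaled CPM of the genes and organs described in the text, with points for libraries in order of replicate, bars for group means and error bars for the SD, drawn no lower than 0. Hspb1 and Jun in the ovary have all treated libraries below the vehicle libraries, while for Hspa1b in ovary and liver BPA rat 1 (92.1 and 93.9 CPM) stands with the vehicle rats.

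Dnajb1, whose promoter carries GAANNTTC next to the start, gave no call. In the testis all 9 libraries lay between 317 and 403 CPM, and in the ovary between 65.2 and 120.3. Female livers held 63.6, 72.7 and 61.5 CPM under vehicle, 63.3, 52.8 and 39.0 under BPA and 46.1, 35.1 and 45.6 under Mix (log2 -0.64 ± 0.22 for Mix, adjusted p = 0.543). All Mix livers lay below all vehicle livers. In the male thyroid BPA rat 1 held 179 CPM, and the other 8 libraries 43.3 to 68.7. In that library the 6 testis markers summed to 14491 CPM against 8.46 to 652 in the other male thyroids, and the part of testis RNA in its Dnajb1 level was not tested.

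Mix and BPA were given at the same total dose, so these groups can be set side by side directly. Over 70 pairs of a gene with an organ and sex, edgeR called none for Mix against BPA, and 15 (21.4%) had an unadjusted p below 0.05, against 10.7% of all genes. DESeq2 called 3 (4.29%, against 2.43% of all genes), namely Atf3 in the male liver and Ier2 and Hspb1 in the female liver. As the members were chosen with earlier results known, neither share tests them as a group. In the ovary the difference for Jun was -0.10 (log2, 95% interval -0.51 to 0.32, adjusted p = 0.905), and for Hspa1b it was -0.92 (-2.13 to 0.28, adjusted p = 0.550). For Cyr61 it was -0.87 in the ovary (-1.57 to -0.17, adjusted p = 0.2965) and -0.85 in the female kidney (-1.33 to -0.37, adjusted p = 0.683), with all Mix libraries below all BPA libraries in both organs.

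Of the 36 other immediate early genes listed, 25 to 32 were tested per organ and sex, and calls were made in the ovary alone. Under BPA 3 rose and 1 fell of 32 tested (4 called, where 6.79% of all genes were), with a median log2 change of 0.20 over the list and 0.01 over all genes. Ctgf, a matrix protein of the same family as Cyr61, stood at 273, 615 and 448 CPM against 100.1, 114 and 124 under vehicle (log2 1.98 ± 0.32, adjusted p = 0.00491). Klf10, a repressor induced by TGF-beta, rose by 1.32 ± 0.23 (adjusted p = 0.00712), and Srf, the factor that binds CArG boxes, rose by 0.62 ± 0.17 (0.0451). Dusp1, a phosphatase that inactivates MAP kinases, fell by 0.70 ± 0.18 (0.0418). Under Mix 2 rose and 1 fell of 32 (9.38%), near the share of all genes (9.12%). Klf10 rose by 1.43 ± 0.23 (adjusted p = 0.00418), Srf rose by 0.61 ± 0.17 (0.0411), and Ier3, a survival factor, fell by 0.99 ± 0.17 (0.00607). The median was 0.14 over the list and 0.01 over all genes. Within the ovary Jun and Klf10 thus moved in opposite directions under Mix.

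Of 31 rows of other heat shock genes, 29 to 31 were tested, and calls fell in the ovary and the male kidney. Under BPA 3 of 31 fell and none rose in the ovary (9.68%, against 6.79% of all genes), with a median of -0.34 over the list and 0.01 over all genes. Cryab, a small chaperone related to HSP27, fell by 1.81 ± 0.43 (adjusted p = 0.0291). Hspe1, the mitochondrial co-chaperonin, stood at 139, 196 and 130 CPM against 267, 445 and 577 under vehicle and fell by 1.47 ± 0.36 (0.0323). Hspbp1, a nucleotide exchange factor of HSP70, fell by 0.56 ± 0.14 (0.0347). Under Mix 3 of 31 fell as well (9.68%, near the 9.12% of all genes), with a median of -0.19. These were Bag3, a co-chaperone of HSP70, by 0.64 ± 0.17 (0.0397), Hspbp1 by 0.49 ± 0.14 (0.0464), and Hspa1l. Hspa1l, an HSP70 known mainly from the testis, stood at 0.357 ± 0.366 against 6.15 ± 6.85 CPM (0.0272), with vehicle rat 2 at 14.0 CPM; that rat's ovary also had the most testis markers, 619.7 CPM against 4.90 to 272 in the other 8.

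In the male kidney 2 of 31 heat shock genes (6.45%, against 2.93% of all genes) were called for Mix against BPA. Hspa1l and Hspa4l, both HSP70-family genes with high expression in testis, were higher under Mix than under BPA, by 2.58 ± 0.49 (adjusted p = 0.0207) and 1.84 ± 0.30 (0.0115) on the log2 scale. The 6 testis markers summed to 844 to 1710 CPM in these Mix kidneys and to 37.5 to 204 in the BPA kidneys, and their part in the difference was not tested. No other comparison called a gene of either list by edgeR.

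Following rats across organs, the heat shock gene Hspa1b placed the same 4 females on top in liver and ovary. Rats G111, G112 and G113 of the vehicle group and G126 of the BPA group had 57.6 to 112.6 CPM in the liver and 49.8 to 92.1 in the ovary, and the other 5 had 27.2 to 38.5 and 12.02 to 31.2. The rats fell into separate sets of 4 and 5, so no pooled correlation is given. Of the 99 relations between organs described below, this one had the smallest adjusted p. It was 0.0562 by exact permutation of Pearson's r, above the threshold. Hspa1a, the neighbouring near-identical gene, placed G126 at 37.7 CPM in the liver and 77.7 in the ovary, where it was the highest of 9. Hspa1a did not place the same 4 on top in the liver, since G113 stood at 22.2 CPM, below G127 at 25.7 and G128 at 24.3. In the thyroid the pattern did not return: G126 was again highest for Hspa1b at 45.8 CPM and G111 second at 44.9, but G113 was lowest at 0.137 CPM, from a single read. G111 and G126 had no kidney library.

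**Figure D4:**
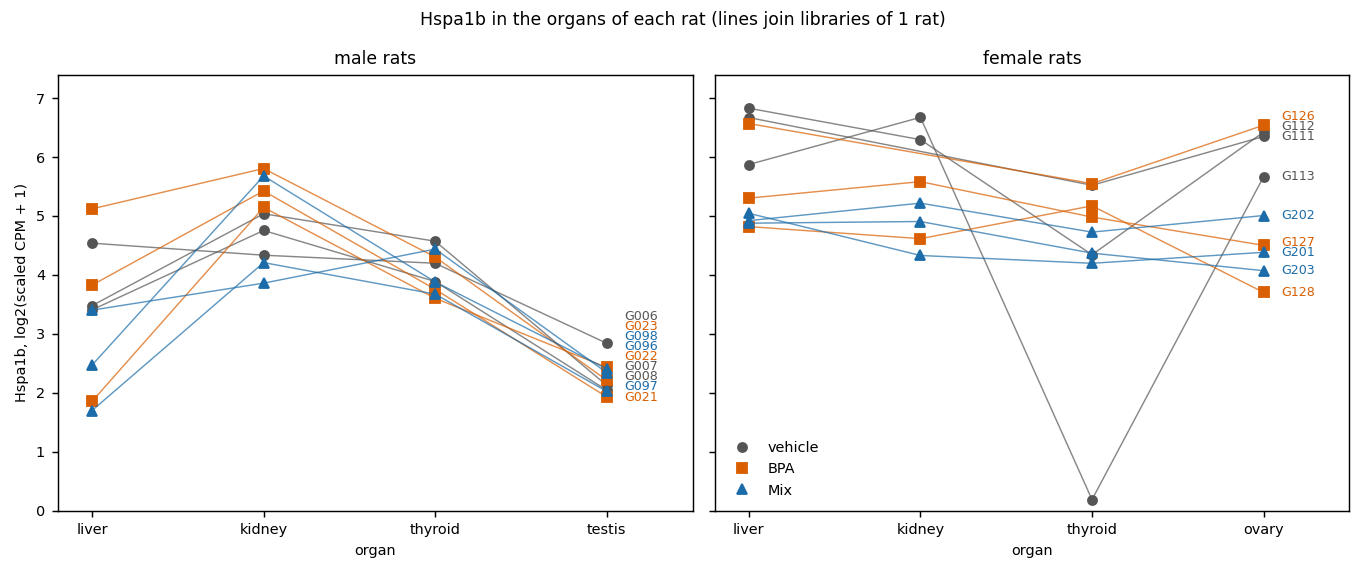
Hspa1b as log2(scaled CPM + 1) in each organ of every male (left) and female (right) rat, with lines joining the libraries of 1 rat and its code at the right; G111 and G126 have no kidney library. In females G111, G112, G113 and G126 lie above the other 5 in liver and ovary, and the thyroid of G113 lies near 0.

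Over all members, 99 relations of a gene between organs of the same rats were computed on log2(CPM + 1), of which 60 were positive. None had an adjusted p below 0.05 by Pearson's r or Spearman's rho (exact permutation of pairings, two-sided, Benjamini-Hochberg over the 99), and 11 had an unadjusted p below 0.05. On deviations from treatment group means, 49 were positive and 7 reached that unadjusted threshold. Ier2 in the female kidney and ovary gave r = 0.90 and rho = 0.96 over 7 rats (adjusted exact permutation p = 0.275), and r = 0.94 without the 2 rats farthest from the median. Fos in the male liver and kidney gave r = 0.77 and rho = 0.68 over 9 rats (adjusted exact permutation p = 0.349), and 0.85 without the 2. Dnajb1 went both ways. It gave r = 0.82 in the female liver and ovary (adjusted exact permutation p = 0.213), and r = -0.82 in the male kidney and testis (0.349). Without the 2 rats these were 0.71 and -0.49. Median r over organ pairs was 0.34 for Dnajb1, 0.32 for Ier2, 0.29 for Jun, 0.18 for Hspa1b and 0.09 for Hspb1. It was 0.04 for Cyr61, 0.02 for Fos, -0.05 for Atf3 and -0.19 for Junb. On deviations from treatment group means these medians were -0.13 for Dnajb1, 0.04 for Ier2, 0.19 for Jun, 0.15 for Hspa1b and 0.31 for Hspb1. For Cyr61, Fos, Atf3 and Junb they were -0.12, -0.26, -0.09 and -0.29.

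Rats were ranked within each organ that had libraries of all 9 rats of the sex (1 is the highest), which leaves out the female kidney. The 3 heat shock genes put vehicle female G111 at a mean rank of 2.00 over 9 values and G128 of the BPA group at 7.00. Among males Mix rat G097 had the lowest levels, at a mean rank of 7.83 over 12 values. Mean ranks over the immediate early genes ran from 3.95 to 5.74 in females and from 3.95 to 5.48 in males. Male vehicle rat G006 had the smallest mean rank for the immediate early genes, and tied with BPA rat G022 for the smallest for the heat shock genes at 3.67.

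Within an organ and sex, the members did not rise and fall as a single group. Across the 70 libraries, on log2(CPM + 1) centred within organ and sex, r was 0.50 for Jun and Atf3, 0.43 for Hspa1b and Hspb1, 0.38 for Hspa1b and Dnajb1 and -0.01 for Fos and Jun. Libraries of 1 rat and group share an animal and a treatment, so these are descriptions. Among 9431 rows with a mean log2 level of at least 2, those most like Fos were Lifr (r = 0.61), Kalrn, Frs2, Pds5b and Srgap2 (0.52). Those most like Hspa1b were Hspa1a (0.75), Entpd2, Rbm4, Banp and Atad2 (0.60). By Spearman's rho 3 of the first 5 and 2 of the second 5 kept a place in the top 5. How reads shared by Hspa1a and Hspa1b were counted is not given in the sources used here, so the split between them is uncertain.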

How the data were processed

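RNA was extracted with TRIzol and QuantSeq 3′ libraries were made, per the labels' protocols. The deposited table holds whole-number read counts per gene, made by the authors; FastQC, Bowtie2, bedtools, edgeR and the build rn6 are named in the submitters' processing notes without versions. How multi-mapping, overlapping or antisense reads were counted is not stated. The members and the gene lists were chosen with earlier results of these data known.

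Groups came from tissue, sex and treatment as labelled. Each of 8 organ and sex combinations was fitted with edgeR 4.0.16 in R 4.3.3 (filterByExpr by treatment, TMM, glmQLFit and glmQLFTest on the counts of all 3 groups), with Benjamini-Hochberg adjustment over all genes and a threshold of 0.05. The SE is the log2 change over the square root of F; 95% intervals carry no multiplicity adjustment. Sex by treatment terms came from joint fits of both sexes. On simulated male liver counts, the script recovered 200 of 200 changed genes with 9 false calls. Power to detect changes of the size seen in the members, or in genes at a few reads, was not tested. Relations between organs used SciPy 1.17.1 on log2(CPM + 1) and, as an alternative, a pseudocount of 0.1. All 10 members were to be described in every organ, from each other list up to 4 called genes per comparison, and the 5 rows most like Fos and Hspa1b. Alternatives were DESeq2 1.42.0, RLE scaling, no filter, a replicate block, the ribosomal RNA share and leaving out each library. Sequences are RefSeq's, GRCr8.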

Additional observations from a re-analysis of the deposited data

Results flagged for a closer look

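Cyr61 moved in opposite directions under BPA in 2 organs of female rats. In the ovary all BPA libraries lay above all vehicle libraries, and in the kidney all lay below them. The case was found by searching all members and organs for such opposite separations. How many of all genes show the same pattern was not computed, and groups this small can separate without any effect. The log2 change was 0.87 in the ovary (3 against 3 rats) and -0.74 in the kidney (2 against 2), a difference of 1.60 that was not tested. Under BPA the 5 endothelial markers moved the same ways, from 302 to 312 CPM under vehicle to 189.8 to 190.2 in the kidney and from 151 to 158 to 164 to 207 in the ovary. Under Mix they stood at 269 to 295 CPM in the kidney, also below vehicle, where Cyr61 was lowest. In the ovary they stood at 177 to 268 CPM, above vehicle, where Cyr61 under Mix lay below BPA. Other marker lists also separated under BPA in these organs, as given above, and the part of any of them was not tested. Neither Cyr61 change was called in its own organ by edgeR (adjusted p = 0.128 and 0.195). Groups of 3 are too small for a search for single outlying libraries.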

How the results depend on the processing

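With RLE scaling no count of called members moved by over 1.5 times in 24 comparisons. DESeq2 moved 6 counts: to 1 in male liver, Mix against BPA, to 1 and 2 in female liver, Mix against vehicle and against BPA, to 1 and 2 in female kidney, BPA and Mix against vehicle, and to 2 in ovary, BPA against vehicle. Over all genes the calls in these 6 went, in this order, from 1 to 49, 5 to 50, 0 to 39, 0 to 308, 0 to 61 and 738 to 1226. With no low-count filter 7 moved: to 1 and 3 in male liver, BPA against vehicle and Mix against BPA, to 1 and 1 in female liver, Mix against vehicle and against BPA, to 1 and 2 in female kidney against vehicle, and to 2 in ovary, BPA against vehicle; over all genes from 22 to 78, 1 to 75, 5 to 109, 0 to 86, 0 to 258, 0 to 72 and 738 to 834. With the ribosomal RNA share as a covariate 3 moved: to 0 in female liver and 1 in female kidney for BPA against vehicle, and to 2 in female kidney for Mix against vehicle, with 40 to 21, 0 to 997 and 0 to 404 over all genes. The cause was not tested.

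With a replicate block 3 counts moved: to 0 in female liver and 2 in ovary for BPA against vehicle, and to 1 in female liver for Mix against BPA, and no other count of called members moved by over 1.5 times. The labels tie same-numbered rats of different treatments by nothing but the number, and their deviations correlated from -0.35 to 0.25. This was over 0.1 in 6 of 9 pairs in the male kidney and in 3 of the 60 elsewhere. In the male kidney the block took calls over all genes from 15 to 168 for BPA and from 3 to 26 for Mix against vehicle, and no member was called.

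Leaving out 1 library at a time, counts of called members ran from 0 to 0 in female liver, BPA against vehicle; from 0 to 1 in female liver, Mix against vehicle, and male kidney, Mix against BPA; from 0 to 2 in female kidney, Mix against vehicle; from 0 to 4 in ovary, BPA against vehicle; and from 0 to 3 in ovary, Mix against vehicle. For BPA in the ovary the count was 4 without BPA rat 1 (Hspb1, Jun, Atf3 and Hspa1b), 2 without vehicle rat 1, Mix rat 1 or Mix rat 2, and 0 without vehicle rat 2, BPA rat 2 or BPA rat 3. For Mix in the ovary it was 0 without vehicle rat 2 or Mix rat 3, and 1 without vehicle rat 3 or Mix rat 2. The full ovary fits called 6.79% of all genes for BPA and 9.12% for Mix. Apart from the fit without G112, calls over all genes are not given for the fits that leave out a library. These counts are therefore not read as results about the members. The added calls came without BPA rat 1 in the female liver (Hspa1b), without Mix rat 3 in the male kidney (Hspa1b) and without vehicle rat G112 in the female kidney (Cyr61 and Hspa1b). The last leaves 1 vehicle library, assumed to vary like the other groups, and raised the calls over all genes from 0 to 329. The log2 changes of the 4 calls kept their sign in all these alternatives. Depth limits Egr1, Fos and Atf3, which lie at a few reads in several organs.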

Other observations

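Hspa1b and Hspa1a, which are near-identical, parted in 1 library. The thyroid of vehicle female G113 held 1 read of Hspa1b and 39 of Hspa1a. The other female thyroids held 108 to 355 reads of Hspa1b and 35 to 145 of Hspa1a. In the ovary, G113 held Hspa1b at 49.8 and Hspa1a at 48.6 CPM. That thyroid library also had the most summed adipocyte markers, 5557 CPM against 355.6 to 2055 in the other 8 female thyroids.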
